A study of Mus musculus with 30 samples.

Results

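Olfr722, Olfr728, Olfr729, Olfr730, Olfr731, Olfr734, Olfr735 and Olfr736 are 8 odorant receptor (OR) genes of distal mouse chromosome 14 with counts from a NanoString probe pair. Each lies more than 2 Mb before Olfr1507. Whether the next genes, from Olfr738 on, all lie nearer than that was not checked. They were picked by name and position, with earlier results of these data known. They make up 8 of the 564 OR genes with counts and 8 of the 26 on chromosome 14. NanoString counts RNA molecules directly: a capture probe and a barcoded reporter probe bind next to each other on one RNA, and the barcodes are read without amplification. Total RNA (1 µg) came from the whole olfactory mucosa of 30 mice of 21 days, 1 mouse to a lane, in 5 groups of 6. ΔHxΔP mice (ΔP (Berry) x ΔH in the labels, double homozygous) lack both the H element on chromosome 14 and the P element on chromosome 7, in a mixed C57BL/6J x 129SvEv background, and were run on cartridge MK29 (lanes 7 to 12). Their companion wild-type mice, of the same mixed background, filled lanes 1 to 6 of that cartridge, so lane and genotype cannot be told apart. A second set of 6 mixed wild-type mice, companions of the ΔH strain, was run on cartridge MK37. ΔOlfr7Δ mice (homozygous, inbred 129SvEv) lack the Olfr7 cluster, which is on another chromosome, and were run on cartridge MK38 (lanes 7 to 12) beside wild-type 129S6/SvEvTac mice (lanes 1 to 6). These are germline deletions, so they are not limited to olfactory neurons. Of the 6 ΔHxΔP mice 1 was female, and of all 30 mice 14 were. The labels do not say which alleles of chromosome 14 each mixed mouse carried.

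An olfactory sensory neuron expresses a single OR gene, from a single allele, out of a very large family in the mouse genome. The H and P elements are enhancers that act in cis: each raises the chance that a neuron chooses an OR gene of the cluster around it, and the effect is strongest for the genes nearby. In RNA from whole mucosa, fewer neurons expressing an OR and less RNA per neuron cannot be told apart. RefSeq (GRCm38.p6, used here for names and neighbours only) lists 15 OR genes in a row from Olfr722 to Olfr736, all protein coding, with Tlr11, a Toll-like receptor gene, between Olfr735 and Olfr736; 7 of these OR genes had no counts here and were not analysed. Olfr728 (MOR246-1P), Olfr729 (MOR246-6) and Olfr731 (MOR246-5) carry names of the MOR246 family. Olfr730 is MOR247-1, whereas Olfr736 shares the family MOR106 with its neighbour Olfr738. The other 3 genes are MOR241-3 (Olfr722), MOR242-1 (Olfr734) and MOR243-1 (Olfr735). Olfr736 and Olfr738 are transcribed on the forward strand and the other 7 members on the reverse strand.

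Whether a count belongs to 1 gene depends on its probes, so those of 3 genes on which the results turn are shown, as deposited and 5′ to 3′. They are complementary to the RNA: in 478 RefSeq windows around OR gene starts, 25 probes matched the window of their own gene over 20 bases on the strand opposite to the gene and 0 on the same strand. Capitals mark the longest run that 2 members' probes share.
Olfr728 capture: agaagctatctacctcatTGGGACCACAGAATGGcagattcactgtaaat
Olfr728 reporter: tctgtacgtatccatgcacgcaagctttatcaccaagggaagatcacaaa
Olfr730 capture: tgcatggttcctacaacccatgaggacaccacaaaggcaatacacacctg
Olfr730 reporter: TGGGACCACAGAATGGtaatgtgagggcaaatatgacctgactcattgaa
Olfr736 capture: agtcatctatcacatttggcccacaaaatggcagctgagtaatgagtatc
Olfr736 reporter: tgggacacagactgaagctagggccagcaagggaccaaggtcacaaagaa

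The shared run, 16 of 50 bases, joined the capture probe of Olfr728 to the reporter probe of Olfr730, and no member's probe shared a longer run with any of the other OR probes. A molecule is counted only where both probes of a gene bind. The counts of Olfr728 and Olfr730 moved in opposite directions in the same mice of the ΔHxΔP strain. Probes were compared with other probes only, and not with the RNA of other OR genes, such as the 7 of this row without counts. Whether a member's probes also bind the RNA of another OR gene was therefore not tested.

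Counts were scaled so that the positive controls and 5 reference genes of the olfactory sensory neuron matched across lanes, and every level below is such a scaled count per mouse. Summed OR counts ran from 618163 to 1013430 per lane before scaling, and the background of a lane, the mean of its negative controls plus 2 SD, was 32.4 to 56.2 scaled counts. The 8 members were above it in all 30 mice. The reference genes Omp, Cnga2, Adcy3, Gnal and Ano2, markers of mature olfactory sensory neurons, were at 5982 scaled counts or more in each lane. In ΔHxΔP mice Olfr1507, the gene next to the H element, was at 31.0 to 52.8 (median 42.7) against 4995 to 11467 (median 8916) in mixed wild-type mice, and Olfr2 of the P cluster was at 40.4 to 65.9 (median 46.1) against 3491 to 4244 (median 3842). Both receptors were near background in the mutants, whose label names both deletions. The labels number no replicates, and the p-values measure the spread between these individual mice.

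**Figure D1:**
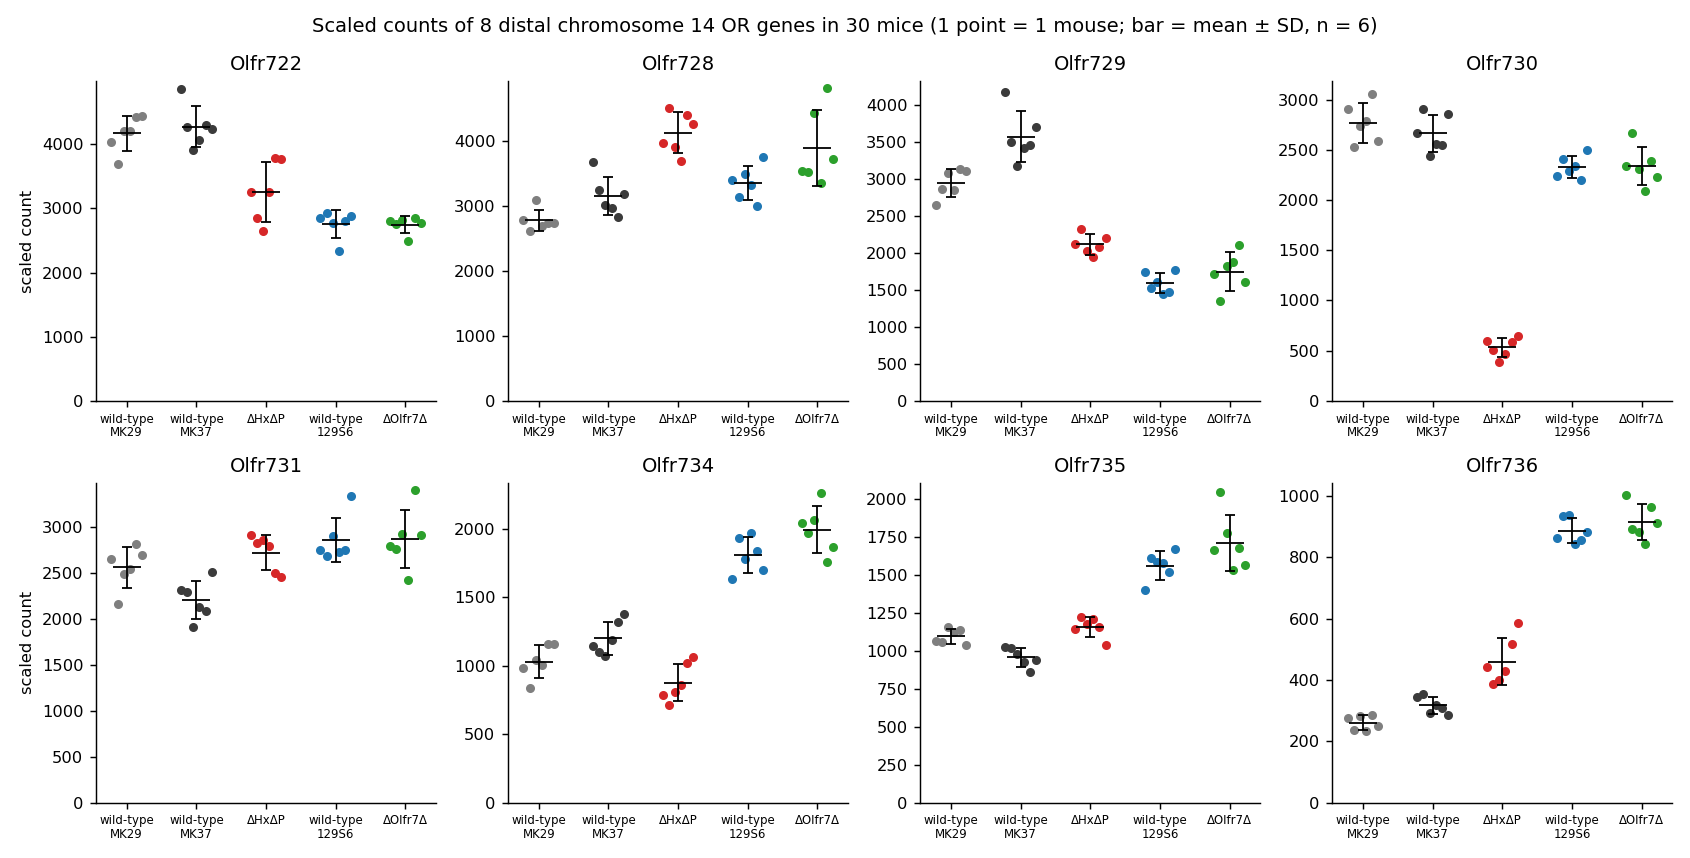
Scaled count (y axis, linear, from 0) of each gene in each mouse, by group (x axis); points are mice and bars show mean ± SD, n = 6. Olfr730 stands apart in ΔHxΔP mice, at 385 to 649.8 against 2090.1 or more in every other mouse. Olfr736 runs upward from mixed wild-type through ΔHxΔP to the 129 groups. Its mixed wild-type groups do not overlap either, at 234 to 284.5 (MK29) and 286.1 to 353 (MK37).

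The 8 genes split by direction in ΔHxΔP mice. Compared with the 12 mixed wild-type mice, 4 fell (Olfr722, Olfr729, Olfr730, Olfr734) and 4 rose (Olfr728, Olfr731, Olfr735, Olfr736) at an adjusted p below 0.05 by limma over 558 OR genes. Among all OR genes tested, 34.2% passed that test, 23.8% as lower and 10.4% as higher. The median change over the 8 genes was -0.087 on the log2 scale, beside -0.055 over all OR genes tested. Genes that fell and genes that rose lay interspersed along the chromosome. The 3 MOR246 genes did not move alike: Olfr728 rose and Olfr729 fell. Olfr731 rose only slightly (0.20, adjusted p = 0.0486) and was not called against the wild-type mice of MK29 alone (adjusted p = 0.371).

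Olfr730 fell most. It was at 2443 to 3053 (median 2704) in mixed wild-type mice and at 385 to 649.8 (median 547) in ΔHxΔP mice. The means were 2716 ± 189 (SD, n = 12) and 532 ± 98.7 (SD, n = 6), 5.16-fold lower (log2 change -2.37, SE 0.086, adjusted p = 5.98e-16). The groups did not overlap, and the lowest ΔHxΔP mouse was still far above its lane's background, whereas Olfr1507 and Olfr1508 were near background in the same mice. At the FC threshold of 1.5 and p of 0.01 of the methods' tTREAT, which called 4.12% of OR genes, Olfr730 was the only one of the 8 genes that passed.

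Olfr729, the gene before it, fell less. It was at 2655 to 4185 (median 3157) in mixed wild-type mice and at 1941 to 2331 (median 2103) in ΔHxΔP mice, again without overlap (log2 change -0.62, SE 0.078, adjusted p = 2.22e-06). Olfr722, the first gene of the row, was at 3695 to 4858 (median 4222) and 2648 to 3778 (median 3256), in the same order, and 2 of the 6 mutants were above the lowest wild-type mouse (log2 change -0.38, SE 0.071, adjusted p = 2.98e-04). Olfr734 was at 836 to 1376 (median 1124) in wild-type and 717 to 1063 (median 834) in ΔHxΔP mice, with ranges that overlapped broadly (log2 change -0.35, SE 0.10, adjusted p = 0.0092). The falls of these 3 genes were 1.53-, 1.30- and 1.27-fold.

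Olfr736 rose most, 1.58-fold. It was at 234 to 353 (median 285) in mixed wild-type mice and at 387 to 585 (median 434) in ΔHxΔP mice (log2 change 0.66, SE 0.10, adjusted p = 4.44e-05). Every ΔHxΔP mouse was above every mixed wild-type mouse. Before scaling its counts were 193 to 298 in wild-type mice of MK29, where counting error alone would give an SD of 0.096 on the log2 scale, beside 0.13 between these mice. Olfr728 rose 1.39-fold. It was at 2619 to 3664 (median 2895) in wild-type and 3692 to 4505 (median 4116) in ΔHxΔP mice, and its groups did not overlap either (log2 change 0.48, SE 0.067, adjusted p = 9.00e-06). Both are among only 1.25% of OR genes whose ΔHxΔP values all lay above those of the wild-type mice; 7.89% lay wholly below. Olfr731 and Olfr735 changed little, 1.15- and 1.13-fold. Olfr731 was at 1914 to 2822 (median 2406) in wild-type and 2456 to 2913 (median 2814) in ΔHxΔP mice (log2 change 0.20, SE 0.076, adjusted p = 0.0486). Olfr735 was at 857 to 1159 (median 1030.0) and 1038 to 1224 (median 1164) (log2 change 0.18, SE 0.066, adjusted p = 0.0425). The groups of both genes overlapped, and their adjusted p-values were just under the threshold.

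The 2 wild-type groups gave the same directions for all 8 genes but not the same calls. Within cartridge MK29, where 26.8% of OR genes were called, Olfr722 (-0.37), Olfr729 (-0.48) and Olfr730 (-2.39) fell and Olfr728 (0.57) and Olfr736 (0.80) rose on the log2 scale. Olfr731 differed by 0.09 (95% confidence interval -0.061 to 0.24, adjusted p = 0.371), Olfr735 by 0.079 (-0.065 to 0.22, adjusted p = 0.418) and Olfr734 by -0.24 (-0.47 to -0.0097, adjusted p = 0.108), none of them called. Against the wild-type mice of cartridge MK37, where 45.3% were called, all 8 passed, with Olfr730 at -2.34 and Olfr736 at 0.52. The calls of Olfr731 and Olfr735 also ended when any of 10 and of 12 of the 18 mice, respectively, was left out, with adjusted p-values up to 0.108 and 0.0945. With sex as a covariate they ended too (adjusted p = 0.1635 and 0.0616). The other 6 calls stood whichever 1 mouse was left out.

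**Figure D2:**
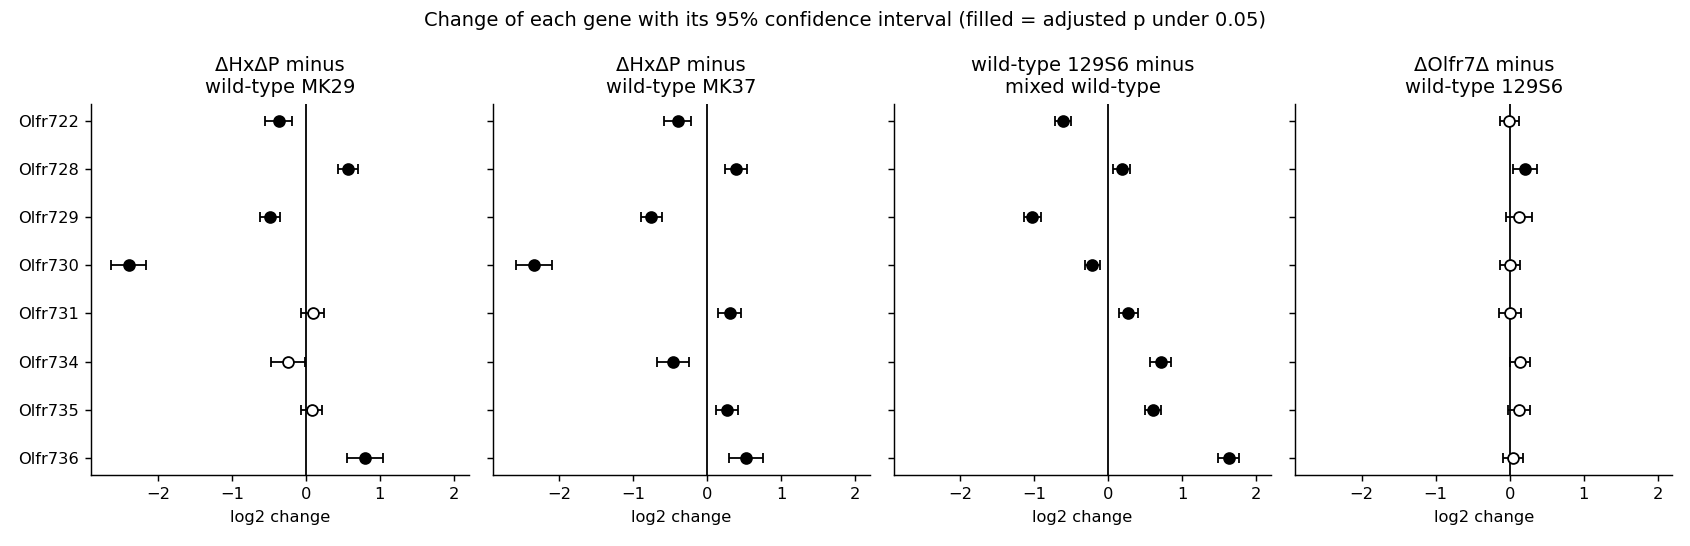
Log2 change (x axis) of the 8 genes (y axis) with its 95% confidence interval in 4 comparisons of 6 mice with 6, or with 12 in the third; filled points have an adjusted p below 0.05. Olfr730 moves to about the same extent against both mixed wild-type groups (-2.39 and -2.34) and little between backgrounds (-0.22), whereas Olfr736 shows its largest difference, 1.62, between the 129 and mixed wild-type mice.

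The other OR genes of distal chromosome 14 did not move both ways. The 8 genes and these lists were set with earlier results of these data known. The border between Olfr736 and Olfr738 is part of that choice, so the contrast between lists is a description and not an independent test. The H cluster is here the 7 genes marked H in the study's OR gene list. The paper's text reports more than 7 H cluster genes as lower in these mice by tTREAT, so it uses the name more widely. Genes kept apart from the H cluster here, Olfr730 among them, may belong to that wider cluster. Of the 7 genes of the H cluster, 6 fell and 0 rose (median change -2.50 on the log2 scale). Of the 9 other distal genes, 8 fell and 0 rose (median -0.96). Olfr738, the next measured OR gene after Olfr736 and of the same family, was at 545 to 663 (median 573) in wild-type and 241 to 328 (median 287) in ΔHxΔP mice (log2 change -1.08, SE 0.078, adjusted p = 2.08e-10), so that the direction of change turned between these neighbours. Olfr730 fell further than any of the 9 other distal genes, whose largest fall was -1.84 (Olfr740). Its fall lay near that of Olfr1510 in the H cluster (-2.50; both genes are named after their values were seen), while Olfr1507 and Olfr1508 were at -7.63 and -7.60 on the same scale. On the other side, Olfr31 of proximal chromosome 14 was at 361 to 1393 (median 689) in ΔHxΔP mice, a wide spread, against 1101 to 1770.3 (median 1428) in mixed wild-type and 233 to 285 (median 268) in 129 wild-type mice.

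**Figure D3:**
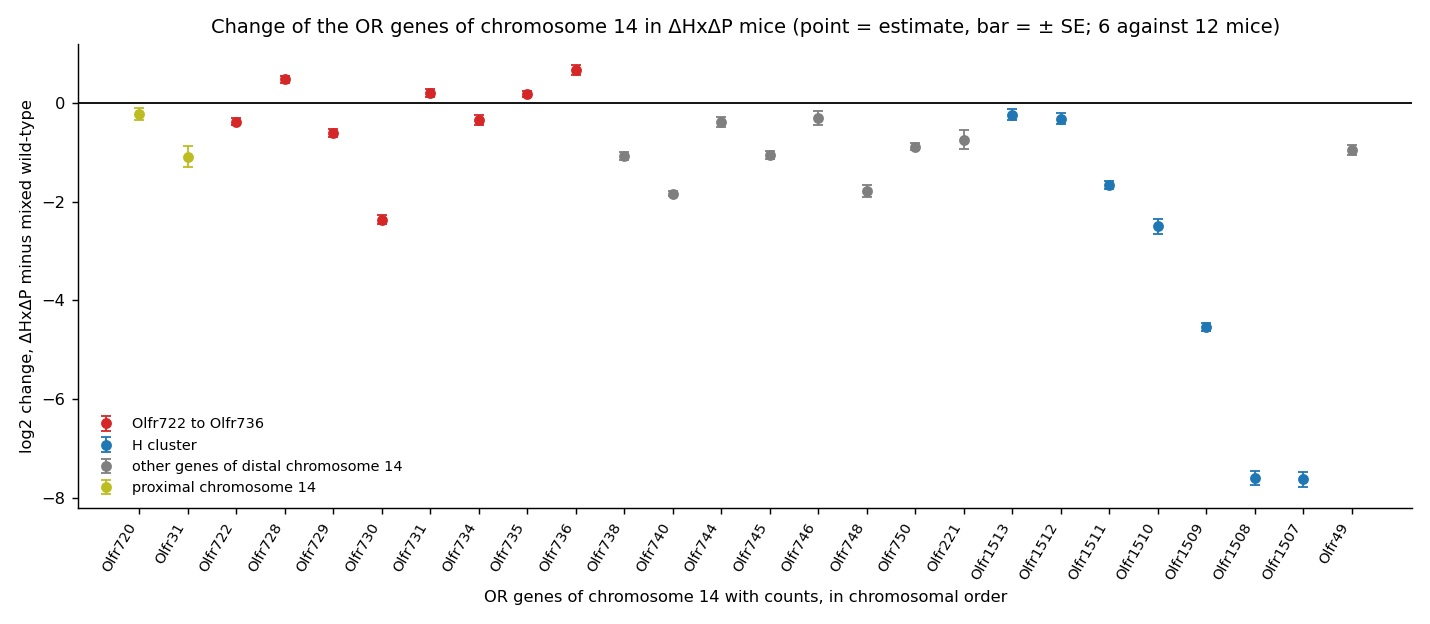
Log2 change in ΔHxΔP against mixed wild-type mice (y axis; points are limma estimates, bars ± SE) of the 26 OR genes of chromosome 14 with counts, placed in chromosomal order and not to distance (x axis). Points of the 8 genes lie on both sides of 0, from -2.37 to 0.66, whereas the 18 other genes are all below it.

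In a ratio of neighbouring genes within a lane the scale factor of the lane cancels. Of 541 pairs of consecutive OR genes, 36% changed their ratio between ΔHxΔP and mixed wild-type mice. All 9 pairs that hold at least 1 of the 8 genes did so too. Consecutive pairs share a gene, so these pairs are not independent of each other. The ratio of Olfr730 to Olfr731 was 0.962 to 1.28 in mixed wild-type mice and 0.135 to 0.265 in ΔHxΔP mice (log2 change of the ratio -2.56, SE 0.11, adjusted p = 1.23e-13). In both 129 groups it was 0.747 to 0.896 and 0.7 to 0.964, so the ΔHxΔP mice stood apart from all others. The ratio of Olfr729 to Olfr730 did the same, at 3.38 to 5.25 in ΔHxΔP mice against 0.912 to 1.57 in mixed and 0.618 to 0.78 in 129 wild-type mice.

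In 3 other pairs the ΔHxΔP mice left the range of the mixed wild-type mice and overlapped that of the 129 wild-type mice. Olfr728 to Olfr729 was 0.819 to 1.05 in mixed wild-type, 1.87 to 2.10 in ΔHxΔP and 1.94 to 2.30 in 129 wild-type mice. Olfr736 to Olfr738 was 0.363 to 0.602, 1.34 to 2.14 and 1.64 to 1.84. Olfr722 to Olfr728 was 1.30 to 1.62, 0.632 to 0.884 and 0.703 to 0.936. Of 524 pairs measured in all mice, 3.24% had a ΔHxΔP range apart from that of mixed wild-type mice only, and 6.87% had 1 apart from both. The other pairs of the row overlapped between ΔHxΔP and mixed wild-type mice, and 3 of them, Olfr31 to Olfr722, Olfr731 to Olfr734 and Olfr734 to Olfr735, were not called against the wild-type mice of MK29 alone (adjusted p = 0.0666, 0.0554 and 0.0682).

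**Figure D4:**
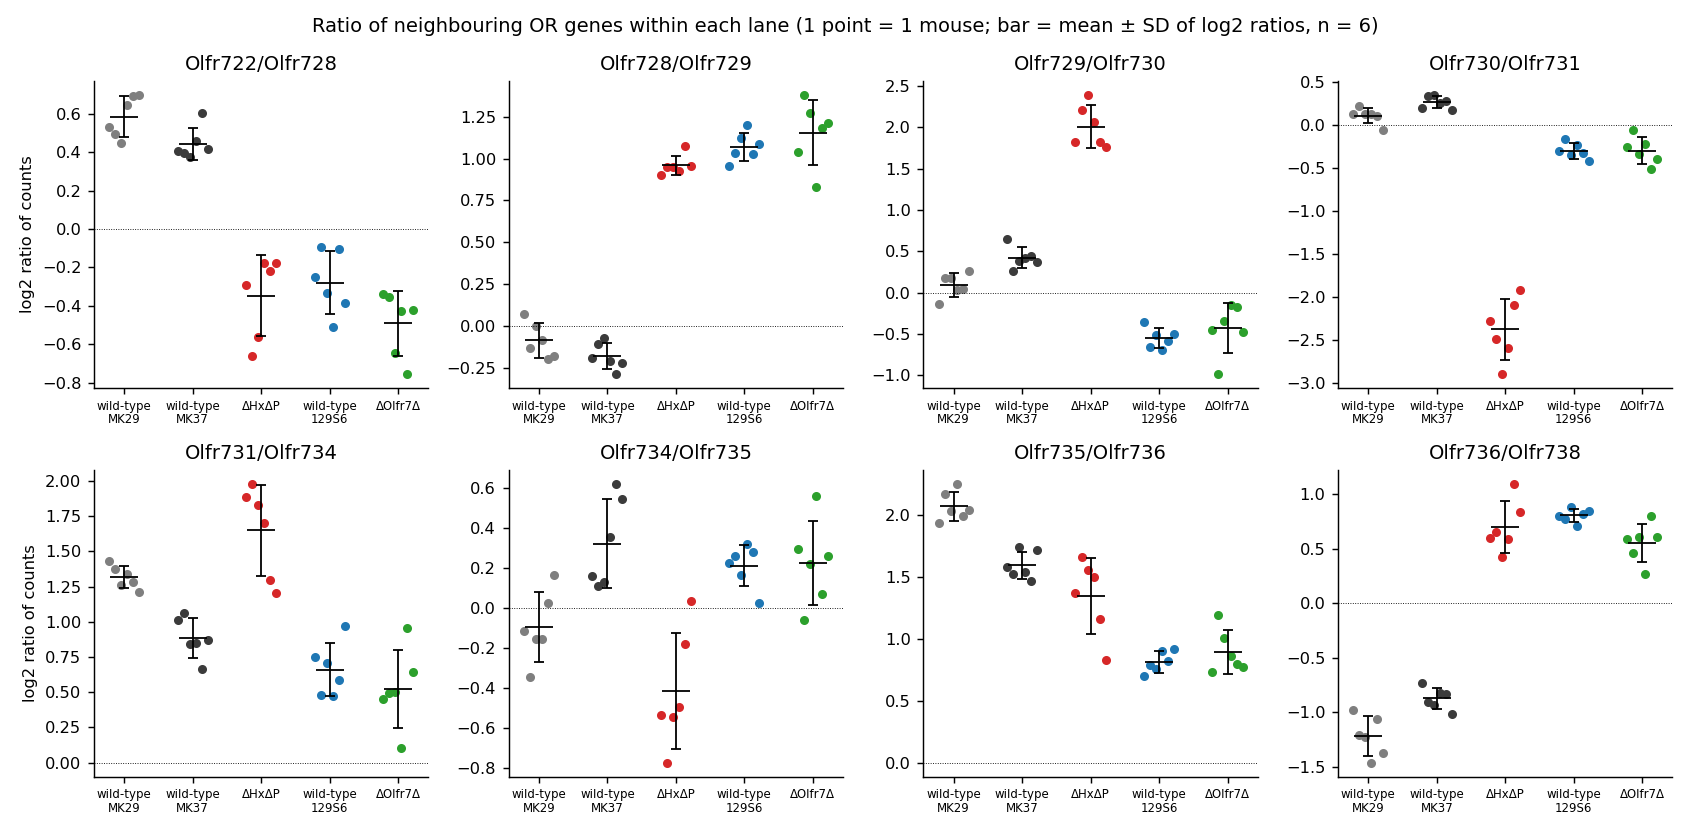
Log2 ratio of the counts of neighbouring OR genes within a lane (y axis), per mouse and group (x axis), with mean ± SD of 6 mice; the dotted line marks equal counts. For Olfr729/Olfr730 and Olfr730/Olfr731 the ΔHxΔP mice lie apart from all other groups, and for Olfr728/Olfr729 (1.87 to 2.10 as a plain ratio) they lie beside the 129 groups.

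Wild-type mice of different backgrounds differed in the 8 genes as well, by up to 3.08-fold. All 8 differed between 129 wild-type and mixed wild-type mice, in a comparison that called 77% of OR genes and in which cartridge and background cannot be told apart. Olfr736 was 3.08-fold higher in 129 mice, at 843 to 938 (median 872) (log2 change 1.62, SE 0.067, adjusted p = 1.07e-16). Olfr734 (1.63-fold), Olfr735 (1.52-fold), Olfr731 (1.20-fold) and Olfr728 (1.13-fold) were higher too. Olfr729 was 2.04-fold lower, at 1444 to 1768 (median 1569) (log2 change -1.03, SE 0.058, adjusted p = 5.22e-14), Olfr722 was 1.53-fold lower and Olfr730 1.16-fold lower. The 129 and mixed wild-type ranges did not overlap for Olfr722, Olfr729, Olfr734, Olfr735 and Olfr736, beside 38.3% of OR genes. Against the wild-type mice of MK37 alone, in an analysis added after seeing the data that called 74% of OR genes, the call of Olfr728 ended (0.091, adjusted p = 0.219), as it did with the positive controls alone for scaling (0.12, adjusted p = 0.212).

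Set side by side, ΔHxΔP minus wild-type mice of MK29 and 129 minus wild-type mice of MK37 share no mouse. On the log2 scale, Olfr736 was higher by 0.80 in the first and 1.48 in the second. Olfr729 was at -0.48 and -1.16, and Olfr722 at -0.37 and -0.63. Olfr730 was at -2.39 and -0.19, and Olfr734 was the only one of the 8 with opposite signs, at -0.24 and 0.60. The signs were the same for 7 of the 8 genes (87.5%) and for 59.9% of the 549 OR genes tested in both. Some of these values were near 0. In the first comparison Olfr731 (0.090), Olfr735 (0.079) and Olfr734 were not called, and in the second Olfr728 (0.091) was not. Signs were also the same for 71.4% of the H cluster and of the P cluster. They were the same for 55.6% of the 9 other distal genes and for both genes of proximal chromosome 14. The part that 129 alleles on chromosome 14 of the ΔHxΔP mice may have in these values was not tested.

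Against 129 wild-type mice directly, an analysis added after seeing the data across cartridges and backgrounds, 65.4% of OR genes were called and ΔHxΔP mice had Olfr730 lower again (-2.15, adjusted p = 3.55e-12). Olfr734, Olfr736 and Olfr735 were lower as well (-1.06, -0.96 and -0.43), and Olfr729, Olfr728 and Olfr722 were higher (0.41, 0.30 and 0.23). Olfr730 and Olfr734 were lower and Olfr728 was higher in ΔHxΔP mice than in the 12 mixed and in the 129 wild-type mice. For Olfr722, Olfr729, Olfr731, Olfr735 and Olfr736 the ΔHxΔP mean lay between those of the mixed and the 129 wild-type mice. Olfr731 differed from 129 mice by -0.07 (-0.21 to 0.07, adjusted p = 0.367).

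Deletion of the Olfr7 cluster was tested in the same way, on another background. In ΔOlfr7Δ against 129 wild-type mice, where 35.1% of OR genes were called, Olfr728 rose 1.15-fold (log2 change 0.21, SE 0.079, adjusted p = 0.0411). It was at 3003 to 3752 (median 3359) in 129 wild-type and 3349 to 4807 (median 3629) in ΔOlfr7Δ mice. The groups overlapped, and the call ended when any of 6 of the 12 mice was left out, with an adjusted p up to 0.119, and under scaling by the median of ratios over all OR genes (0.15, adjusted p = 0.275). The other 7 genes were not called, at -0.0043 to 0.14 on the log2 scale; Olfr729 and Olfr734 were called as higher without ΔOlfr7Δ mouse 2 and mouse 5 (adjusted p = 0.0481 and 0.045). For Olfr730 the difference was 0.0029 with a 95% confidence interval of -0.13 to 0.13, and for Olfr736 it was 0.046 (-0.09 to 0.18). Olfr736 was at 843 to 1004 (median 902) in ΔOlfr7Δ mice.

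The effects of both deletions were then compared with each other, each relative to its own wild-type mice, in a fit that called 33.7% of OR genes. The ΔHxΔP effect was lower for Olfr730 (-2.40, adjusted p = 4.95e-17), Olfr729 (-0.60, adjusted p = 7.23e-05), Olfr734 and Olfr722. It was higher for Olfr736 (0.76, adjusted p = 1.07e-05) and Olfr728 (0.36, adjusted p = 0.0101). For Olfr731 and Olfr735 the difference was not called (0.088 and -0.048, adjusted p = 0.57 and 0.742). With the positive controls alone for scaling, that of Olfr728 was not called either (0.27, adjusted p = 0.196).

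The mixed wild-type mice of both cartridges carried neither deletion but were companions of different strains, so that strain and cartridge cannot be told apart. They differed too: 40% of OR genes were called between MK29 and MK37. Olfr736 (-0.28 on the log2 scale), Olfr729 (-0.27) and Olfr728 (-0.18) were lower on MK29, and Olfr731 (0.21) and Olfr735 (0.19) higher. Olfr734 (-0.22, adjusted p = 0.0522), Olfr722 (-0.035, adjusted p = 0.663) and Olfr730 (0.054, adjusted p = 0.508) were not called. The differences of Olfr731 and Olfr735 were about as large as their ΔHxΔP changes (0.20 and 0.18). With the positive controls alone for scaling Olfr731 and Olfr735 were not called (adjusted p = 0.3 and 0.349), and by the median of ratios over all OR genes Olfr728 and Olfr736 were not (adjusted p = 0.436 and 0.115). Calls were gained as well: Olfr730 was called as higher on MK29 by the median of ratios over all OR genes (0.16, adjusted p = 0.0437) and outside the 3 clusters (0.17, adjusted p = 0.0338), and Olfr734 as lower with the positive controls alone (-0.31, adjusted p = 0.0152) and with sex as a covariate (-0.25, adjusted p = 0.0265). Sex as a covariate ended the call of Olfr728 (adjusted p = 0.0519), and the median of ratios outside the 3 clusters those of Olfr728, Olfr729 and Olfr736 (adjusted p = 0.496, 0.052 and 0.132). The calls of Olfr728 and Olfr731 ended when any of 8 and of 6 of the 12 mice was left out, with adjusted p-values up to 0.0866 and 0.0721, and Olfr734 was called without any of 4 mice (adjusted p = 0.0276 to 0.047). Between female and male mice, with group as a term, limma called 0 of 549 OR genes, and 26 had an unadjusted p under 0.05; the 8 genes differed by -0.074 to 0.027 on the log2 scale.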

How the data were processed

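RNA from 30 mice was hybridised with a NanoString CodeSet of OR gene probes, 1 mouse per lane. The authors deposited raw counts per probe and lane, not normalised, and the filter used here, a scaled wild-type median of 100 or more, removed 3 OR genes, none of the 8, from the comparison of ΔHxΔP mice with wild-type mice of MK29 and none from the others. The unit of these deposited values is recorded as other, because sample names share the counts' columns. Counts of all 30 lanes were multiplied by factors from the geometric mean of 6 positive controls and then of 5 reference genes (Omp, Cnga2, Adcy3, Ano2, Gnal), without background subtraction. Changes were tested on log2(scaled count + 1) with limma 3.58.1 (R 4.3.3; eBayes with a mean-variance trend) over all OR genes with counts in every lane compared, with Benjamini-Hochberg adjustment and a threshold of 0.05. A change on this scale understates that of a gene near background. Tables were made with Python 3.11.15.

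Groups came from the labels. ΔHxΔP mice were compared with all 12 mixed wild-type mice and with each cartridge's 6, ΔOlfr7Δ with 129 wild-type mice, wild-type groups with each other, and both mutant effects in 1 fit. The methods' tTREAT was run at an FC of 1.5. Strand, gene order, family names and the H and P clusters follow the study's OR gene list, for which no source used here names a genome build, so that no coordinates are printed. The 8 genes, the gene lists and the tests were chosen with earlier results of these data known. The genes named are the 8, Olfr1507, Olfr1508 and Olfr2 as checks of the deletions, the flanking Olfr31 and Olfr738, Olfr740 and Olfr1510, chosen after their values were seen, and the 3 OR genes most correlated with Olfr730 and Olfr736. Alternatives in scaling, background, pseudocount, filter, trend, sex and mice were tried. Counting error alone, from the counts before scaling, would give an SD of 0.022 to 0.096 on the log2 scale in the 8 genes and 5 groups, beside 0.066 to 0.28 between mice.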

Additional observations from a re-analysis of the deposited data

Results flagged for a closer look

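In 4 of 40 combinations of gene and group, 1 mouse lay further from the other 5 than Dixon's test allows; chance alone marks about 1 in 20 groups. Mice are numbered in the order of the deposited samples. Olfr722 was lowest in 129 wild-type mouse 4 (2334 scaled counts) and in ΔOlfr7Δ mouse 4 (2487). Olfr728 was highest in wild-type mouse 3 of cartridge MK29 (3086), and Olfr731 in 129 wild-type mouse 6 (3339). Without any 1 of these mice, the calls of Olfr722 and Olfr731 between 129 and mixed wild-type mice and of Olfr728 between ΔHxΔP and mixed wild-type mice stood.

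The effect of the H and P deletion differed from that of the Olfr7 cluster deletion, by a test of the difference itself in limma, for 6 of the 8 genes, beside 33.7% of OR genes. The difference on the log2 scale was -0.36 for Olfr722, 0.36 for Olfr728, -0.60 for Olfr729, -2.40 for Olfr730, -0.38 for Olfr734 and 0.76 for Olfr736; that of Olfr728 was not called with positive controls alone for scaling (0.27, adjusted p = 0.196). The deletions were studied in different backgrounds and on different cartridges, and the part of either in these differences was not tested.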

How the results depend on the processing

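Against the 12 mixed wild-type mice, the direction of all 8 genes in ΔHxΔP mice was kept under every alternative run, and so was the count of 4 called lower, except that it was 3 against wild-type mice of MK29 and among males; the methods' tTREAT called only Olfr730. The count called higher, 4, was 2 (Olfr728 and Olfr736) under the median of ratios outside the 3 clusters and with sex as a covariate. The same 2 were called against wild-type mice of MK29 alone and among males alone (chosen after seeing the data). With no mean-variance trend the count was 3, as Olfr731 was not called (adjusted p = 0.057). It was 2 to 4 when 1 mouse was left out.

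In ΔOlfr7Δ mice 1 gene was called higher; it was 4 with positive controls alone, 0 with either median of ratios, with background subtracted and with no mean-variance trend, and 0 to 2 when 1 mouse was left out (lower: 0). Uncalled differences near 0 changed sign: Olfr722 (0.18) with positive controls alone; Olfr730 (-0.050), Olfr731 (-0.050) and Olfr736 (-0.0066) under the median of ratios over all OR genes, and -0.095, -0.096 and -0.052 outside the 3 clusters; Olfr731 (-0.019) with sex as a covariate; and without 1 mouse Olfr722 (-0.052 to 0.024), Olfr730 (-0.036 to 0.035) and Olfr731 (-0.048 to 0.050).

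Between mixed wild-type groups, 2 were called higher and 3 lower on MK29. With positive controls alone 0 were higher, and 1 and 0 were lower under the median of ratios over all OR genes and outside the 3 clusters; leaving out 1 mouse gave 1 to 2 higher and 2 to 4 lower. Olfr730 changed sign with positive controls alone (-0.035), Olfr722 under the 2 medians of ratios (0.075 and 0.084) and without 1 mouse (-0.060 to 0.0026). In the comparison of mutant effects Olfr731 (-0.0044, positive controls alone) and Olfr735 (0.027, median of ratios) changed sign, and between sexes Olfr728, Olfr735 and Olfr736 with positive controls alone (-0.050, -0.037 and -0.040) and Olfr728 under the median of ratios (-0.0057). The cause of these changes was not tested. The median change over all OR genes moved with the scaling by over 0.1 in 2 comparisons, from 0.062 to 0.24 (ΔOlfr7Δ) and from -0.096 to 0.015 and 0.023 (wild-type groups). Between 129 and mixed wild-type mice the counts stayed at 5 and 3 when 1 mouse was left out; 4 were higher (not Olfr728) with positive controls alone and against wild-type mice of MK37 alone.

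No paired analysis was made, because each lane held a different mouse and the labels give no pairs of mice. The deposited values are raw counts, but sample names in the same columns kept their unit from being recorded as counts here. The count-model alternative was not run for that reason.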

Other observations

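The spread between mice of 1 group, as the SD of log2 scaled counts, was near that of other OR genes. The median over the 8 genes was 0.16 in ΔHxΔP mice, 0.10 and 0.13 in mixed wild-type mice of MK29 and MK37, 0.11 in 129 wild-type and 0.14 in ΔOlfr7Δ mice, beside 0.18, 0.14, 0.12, 0.11 and 0.13 over all OR genes with a group median of at least 100. Olfr735 varied least of the 8 in the 3 groups of mixed background (0.066, 0.097 and 0.085 in wild-type MK29, wild-type MK37 and ΔHxΔP mice), and Olfr730 varied most in ΔHxΔP mice (0.28).

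Over all 30 mice, the OR genes whose log2 levels ran most like those of Olfr730 were Olfr714 and Olfr2 of the P cluster on chromosome 7 and Olfr1509 of the H cluster (Pearson r = 0.990, 0.988 and 0.983 among 548 OR genes); the 6 ΔHxΔP mice are the low points of each. Those most like Olfr736 were Olfr576 and Olfr628 on chromosome 7 and Olfr1161 on chromosome 2 (r = 0.928, 0.923 and 0.920). Olfr736 itself lay apart between the mixed and the 129 groups, while both 129 groups overlapped. In deviations from the group means, over the same 30 mice, Olfr730 ran most like Olfr1423 and Olfr1427 on chromosome 19 and Olfr710 on chromosome 7 (r = 0.784, 0.756 and 0.677), and Olfr736 most like Olfr131, Olfr722 and Olfr873 (r = 0.728, 0.715 and 0.700). The median over the 28 pairs of the 8 genes was 0.27, from -0.25 for Olfr734 with Olfr735 to 0.72 for Olfr722 with Olfr736, beside 0.18 over all pairs of OR genes. All values of a mouse share its lane and scale factor.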
